A study of Mus musculus with 12 samples.

Results

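The 41 genes described here encode the enzymes and regulators of sterol and fatty acid supply: the SREBP control proteins, the mevalonate and isoprenoid enzymes, the enzymes from squalene to cholesterol, proteins of sterol uptake, transport and storage, the LXR and efflux genes, and the enzymes of fatty acid synthesis and desaturation. They were chosen by gene symbol as a pathway list. All 41 were found among the 50674 genes of the count table, and all 41 were among the 17457 genes with enough counts to be tested. Polyadenylated RNA was sequenced from natural killer (NK) cells, cytotoxic lymphocytes that were taken from mouse spleen and expanded in culture with IL-2. The 4 groups, with 3 libraries each, were Mirc11-/- cells stimulated for 6 h through NKG2D, Mirc11-/- cells left unstimulated, wild-type cells stimulated in the same way, and wild-type cells left unstimulated. The strain label was C57BL/6 throughout, all cells had been expanded in IL-2, and no age is used here. NKG2D is an activating receptor of NK cells, and Mirc11 is a locus whose transcript yields 3 microRNAs (miR-23a, miR-27a and miR-24-2). The labels call the libraries biological replicates but do not tie them to animals or cultures, nor do they say in which cells the cluster was deleted, so p-values measure the spread between these libraries.

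SREBP-2 and SREBP-1, encoded by Srebf2 and Srebf1, are transcription factors held in the endoplasmic reticulum by the escort protein SCAP. When membranes are rich in sterol, INSIG proteins retain SCAP, and the genes of cholesterol and fatty acid synthesis are less transcribed; when sterol is scarce, SCAP carries the SREBPs to the Golgi, where they are cut and released to the nucleus. The LXR receptors work in the other direction: bound to oxysterols, they raise transcription of the sterol exporters Abca1 and Abcg1 and of Mylip, a ubiquitin ligase that removes low-density lipoprotein receptors. In lymphocytes this pathway is known for supplying membrane lipid to growing and dividing cells.

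The Mirc11-/- libraries held 15139281 to 18528612 counts each and the wild-type libraries 18892771 to 25342991. Mir27a, one of the deleted genes, had 0 counts in each of the 6 Mirc11-/- libraries, against 1, 0 and 4 counts in stimulated and 2, 3 and 3 counts in unstimulated wild-type libraries. This check rests on few counts, since mature microRNAs are not captured with polyadenylated RNA, and Mir23a had 0 counts in all 12 libraries. Markers of the labelled cell type were present: mean levels of Gzmb (granzyme B), for example, were 3159 CPM (a count scaled to a common library size, with TMM factors) in stimulated and 7451 CPM in unstimulated Mirc11-/- cells, against 4459 and 6397 CPM in stimulated and unstimulated wild-type cells. Of 13 NK cell markers, 8 fell and 2 rose with stimulation in Mirc11-/- cells, against 22.1% and 23.5% of all genes tested. In wild-type cells 8 fell and 4 rose, against 15.7% and 16.1% of all genes. The summed level of the 13 markers was 5968 to 9424 CPM in stimulated and 15111 to 16718 CPM in unstimulated Mirc11-/- libraries, against 10295 to 11890.0 and 14330.1 to 17014 CPM in stimulated and unstimulated wild-type libraries, and their part in the results below was not tested. Markers of other cell types were present too, at summed levels that are given with their lists at the end. Reads on vomeronasal receptor genes, which lymphocytes are not known to express, were used as a measure of background. As CPM of the library total, without TMM factors, they came to 90.6, 48.6 and 57.9 in stimulated and 14.2 to 17.8 in unstimulated Mirc11-/- libraries, against 40.3, 24.6 and 24.4 in stimulated and 13.1 to 18.4 in unstimulated wild-type libraries. Replicate 1 stood apart in both stimulated groups. In Mirc11-/- cells it had the highest background and the lowest summed level of the 41 genes among the 12 libraries. Its counts differed from those of replicates 2 and 3 by a chi-square of 40.9 and 34.0 per gene, against 4.61 between replicates 2 and 3. In wild-type cells stimulated replicate 1 had the highest background of its group and its lowest summed level, 3241 CPM. It differed from replicates 2 and 3 by a chi-square of 25.98 and 31.62 per gene, against 13.03 between those replicates. Background therefore moved with stimulation and, among stimulated cells, with genotype, and its part in the results was tested only by adding its level as a covariate.

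**Figure D1:**
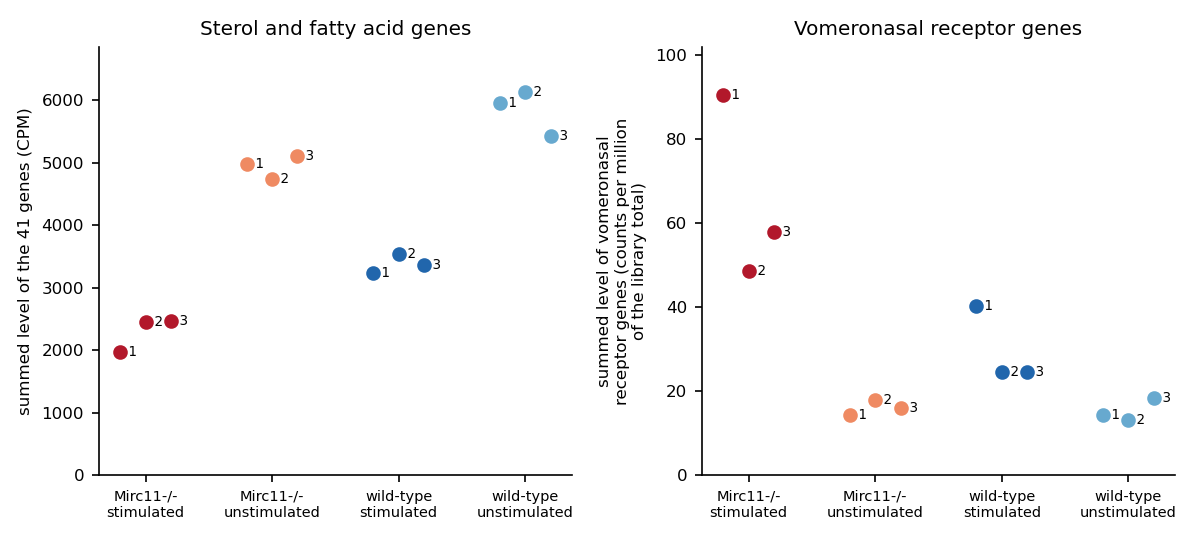
Summed level of the 41 genes (left, CPM) and of the vomeronasal receptor genes (right, CPM of the library total) in each library; points are libraries and numbers their replicate. The 41 genes sum to 1976 to 2471 CPM in stimulated and 4746 to 5104 CPM in unstimulated Mirc11-/- libraries, and to 3241 to 3545 and 5436 to 6139 CPM in stimulated and unstimulated wild-type libraries.

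The promoters of these genes were searched for letters that their regulators are known to bind. RefSeq promoter windows on GRCm38.p6, from 250 bases before to 50 bases after the start of transcription, were matched to 32 of the 41 genes by symbol. They were searched on both strands for TCACCCCAC and TCACNCCAC (forms of the sterol regulatory element), CACGTG (an E-box, which SREBP-1 can also bind), CCAAT (the box bound by NF-Y, which works with the SREBPs) and GGGCGG (the Sp1 box). CCAAT was found in 24 of the 32 genes (75%), against 42.8% of the 10734 tested genes with a window. GGGCGG was found in 25 of 32 (78.1%, against 63.9%), CACGTG in 6 of 32 (18.8%, against 11.2%) and TCACCCCAC in Hmgcs1 alone (3.13%, against 0.652%). TCACNCCAC was found in the same gene alone, against 1.39% of the tested genes. These shares are descriptions of the letters, and no binding was measured. The windows of 4 genes described below are printed as examples: Hmgcs1 and Hsd17b7 are among the 6 genes with the lowest p between genotypes in stimulated cells, Insig1 encodes the feedback protein, and Abca1 had the largest rise. No result on levels rests on the windows. Matches to TCACCCCAC, CACGTG or CCAAT (or its reverse complement ATTGG) are in capitals.
Hmgcs1, chr13:119690101-119690400, plus strand: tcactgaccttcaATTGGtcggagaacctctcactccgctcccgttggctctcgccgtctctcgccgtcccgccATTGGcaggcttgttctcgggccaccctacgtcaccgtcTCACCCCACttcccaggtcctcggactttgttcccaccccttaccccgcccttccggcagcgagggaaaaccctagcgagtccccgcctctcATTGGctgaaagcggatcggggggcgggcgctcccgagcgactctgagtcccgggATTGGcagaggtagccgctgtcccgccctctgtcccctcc
Hsd17b7, chr1:169969156-169969455, minus strand: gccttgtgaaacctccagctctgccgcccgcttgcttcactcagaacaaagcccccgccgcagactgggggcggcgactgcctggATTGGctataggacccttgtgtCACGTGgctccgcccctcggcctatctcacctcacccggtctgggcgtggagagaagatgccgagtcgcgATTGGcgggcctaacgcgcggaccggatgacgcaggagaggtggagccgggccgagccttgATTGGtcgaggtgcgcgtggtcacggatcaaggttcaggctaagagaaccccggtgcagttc
Insig1, chr5:28071162-28071461, plus strand: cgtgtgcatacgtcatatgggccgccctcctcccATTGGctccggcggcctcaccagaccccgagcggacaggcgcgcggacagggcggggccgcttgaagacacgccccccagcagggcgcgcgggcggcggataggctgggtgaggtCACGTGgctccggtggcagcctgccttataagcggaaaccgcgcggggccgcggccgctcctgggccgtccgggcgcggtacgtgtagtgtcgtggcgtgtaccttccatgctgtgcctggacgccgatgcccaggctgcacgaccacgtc
Abca1, chr4:53159846-53160145, minus strand: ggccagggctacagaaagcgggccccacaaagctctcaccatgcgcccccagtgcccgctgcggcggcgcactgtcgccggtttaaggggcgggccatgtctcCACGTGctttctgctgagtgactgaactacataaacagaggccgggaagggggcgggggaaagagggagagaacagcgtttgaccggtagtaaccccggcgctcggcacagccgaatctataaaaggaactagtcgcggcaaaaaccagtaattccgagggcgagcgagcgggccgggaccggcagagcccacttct
The Hmgcs1 window holds CCAAT at 4 places and the sterol regulatory letters once, starting at base 114 of the window. The Hsd17b7 window holds CCAAT at 3 places with an E-box at base 108, the Insig1 window holds 1 of each, and the Abca1 window holds an E-box at base 104 and no CCAAT.

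The first comparison asks what 6 h of NKG2D stimulation did to these genes in cells of each genotype. Most of the sterol and fatty acid synthesis genes fell, in both genotypes, and the sterol exporter Abca1 rose. In Mirc11-/- cells 32 of the 41 genes were called lower and 2 higher (edgeR quasi-likelihood test, Benjamini-Hochberg adjusted p under 0.05 over all 17457 genes), against a background of 22.1% of all genes tested called lower and 23.5% called higher. In wild-type cells 30 were called lower and 4 higher, against 15.7% and 16.1% of all genes. The median log2 fold change of the 41 genes was -1.07 in Mirc11-/- cells and -0.83 in wild-type cells, beside 0.03 and 0.02 for all genes tested. All 3 stimulated libraries lay below all 3 unstimulated ones for 32 genes in each genotype, against 26.2% of all genes in Mirc11-/- cells and 24.1% in wild-type cells. The call was lower in both genotypes for 29 genes. Tm7sf2, Ebp and Npc1 were called lower in Mirc11-/- cells and Fads1 in wild-type cells, and Insig2, Scap, Ggps1 and Npc2 were called in neither. A level here is a share of the RNA of a whole culture, in which fewer cells of a type and less RNA per cell cannot be told apart.

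When the level of the vomeronasal genes was added to the fit, 10 genes were called lower and 1 higher in Mirc11-/- cells, against 3.33% and 3.8% of all genes in that fit, and the median was -0.48. In wild-type cells 22 were called lower and 4 higher, against 13.3% and 14.6% of all genes, with a median of -0.44. Those 4 were Abca1, Nr1h2, Scap and Npc2, of which Scap and Npc2 were not called without the covariate. The 10 that stayed lower in Mirc11-/- cells in that fit were Acat2, Sqle, Lss, Hsd17b7, Dhcr7, Lrp8, Stard4, Srebf2, Fasn and Elovl6, and the 1 higher was Abca1.

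**Figure D2:**
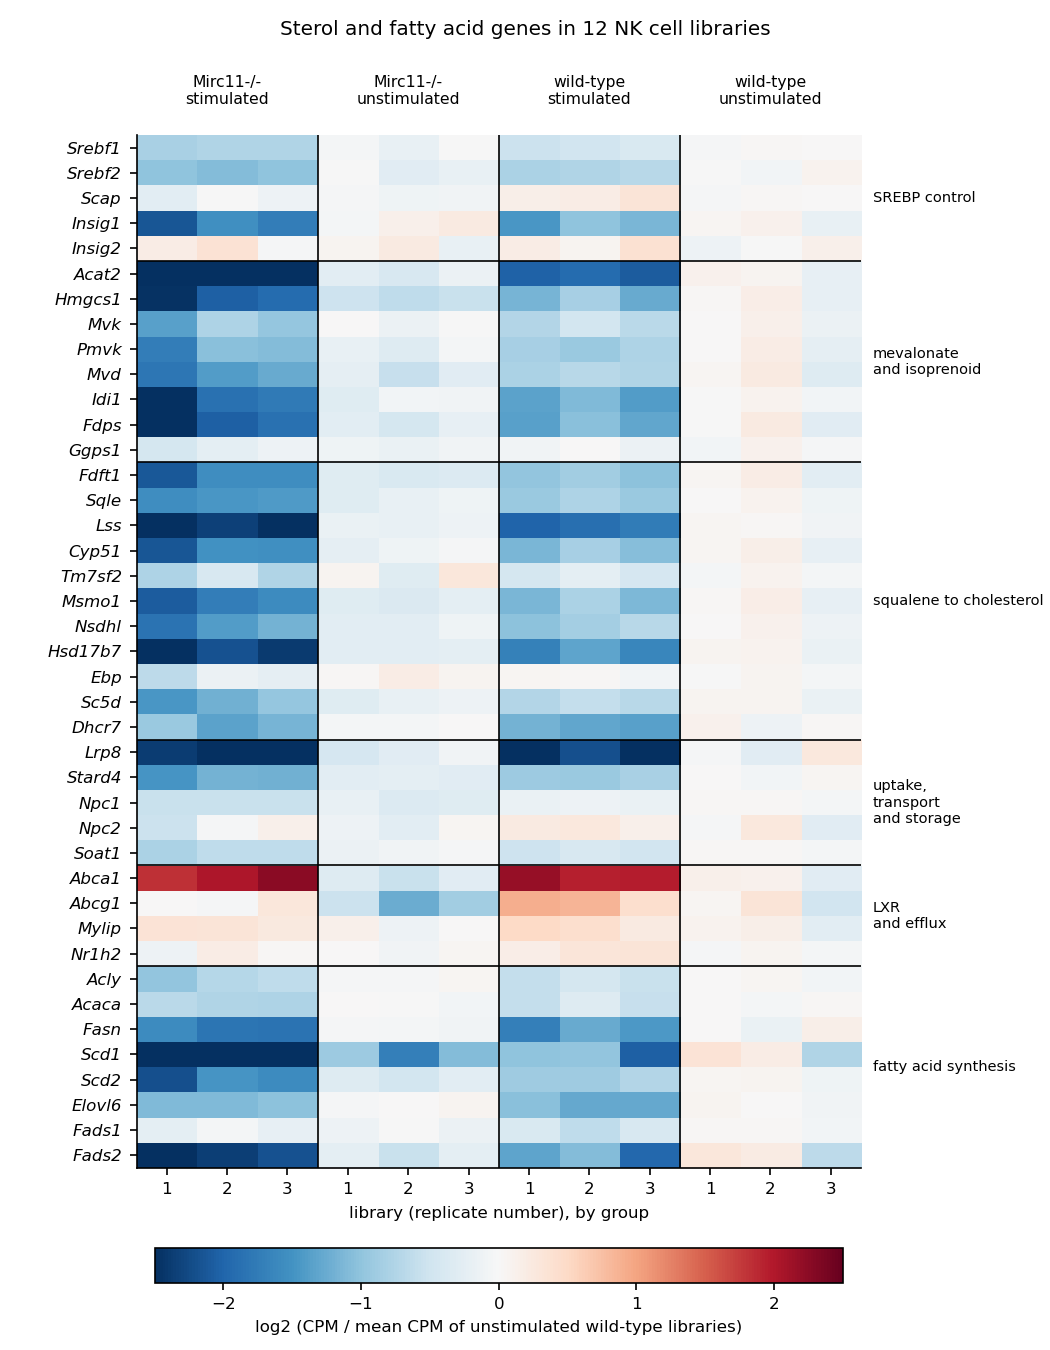
Level of each gene in each of the 12 libraries, as log2 of its CPM over the mean CPM of unstimulated wild-type libraries; rows are genes grouped by role, columns are libraries, and values past the ends of the colour scale take the end colour. The stimulated columns are blue for the genes called lower (32 in Mirc11-/- and 30 in wild-type cells), while the row of Abca1 is red in stimulated libraries of both genotypes.

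Among the 5 genes of SREBP control, 3 were called lower in each genotype. Insig1, which encodes a protein that retains SCAP and is itself an SREBP target, had the largest change of the group. It had 20.6, 31.2 and 27.5 CPM in stimulated Mirc11-/- libraries, against 87.5, 98.8 and 106 CPM in unstimulated ones. The wild-type libraries had 33.02, 44.9 and 41.1 CPM stimulated, against 93.9, 97.9 and 80.02 CPM unstimulated. The stimulated libraries were all low with no overlap, 3.69-fold below unstimulated in Mirc11-/- cells (log2 fold change -1.88 ± 0.153, SE; adjusted p = 9.82e-07, edgeR) and 2.28-fold below in wild-type cells (-1.19 ± 0.148; adjusted p = 5.89e-05). Srebf2, which encodes SREBP-2, had 127, 121 and 127 CPM in stimulated and 252, 209 and 223 CPM in unstimulated Mirc11-/- libraries. In wild-type libraries it had 147, 152 and 157 CPM stimulated, against 253, 242 and 269.9 CPM unstimulated. Its groups did not overlap either, at log2 -0.87 ± 0.0866 in Mirc11-/- and -0.75 ± 0.0862 in wild-type cells (edgeR adjusted p = 5.06e-06 and 2.93e-05). Srebf1, which encodes SREBP-1, had 73.7, 76.6 and 76.4 CPM in stimulated and 125, 114 and 129 CPM in unstimulated Mirc11-/- libraries. The wild-type values were 89.2, 92.9 and 99.97 CPM stimulated and 127, 132 and 129.9 CPM unstimulated. These are smaller falls, of log2 -0.70 ± 0.0757 in Mirc11-/- and -0.46 ± 0.0751 in wild-type cells (edgeR adjusted p = 1.01e-05 and 0.000437). Insig2, the second retention protein, had 8.405, 9.44 and 7.25 CPM in stimulated and 7.73, 8.58 and 6.501 CPM in unstimulated Mirc11-/- libraries, groups that overlapped. It had 8.34, 7.697 and 9.55 CPM in stimulated and 6.75, 7.31 and 8.02 CPM in unstimulated wild-type libraries, which overlapped too, and neither difference passed (log2 0.14 ± 0.149 in Mirc11-/- and 0.21 ± 0.146 in wild-type cells; edgeR adjusted p = 0.474 and 0.291). Scap, the escort, had log2 estimates of -0.06 ± 0.0808 in Mirc11-/- and 0.22 ± 0.0802 in wild-type cells (edgeR adjusted p = 0.596 and 0.0505).

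The mevalonate and isoprenoid branch turns acetyl-CoA into the farnesyl units of sterols. Of its 8 genes 7 were called lower in each genotype, from Acat2 at the entry to Fdps at the end, with Ggps1 as the exception. Acat2, the cytosolic thiolase of the first step, had 4.23, 5.19 and 6.23 CPM in stimulated and 29.4, 26.7 and 31.7 CPM in unstimulated Mirc11-/- libraries. It had 8.62, 9.28 and 8.28 CPM in stimulated and 38.1, 37.1 and 30.4 CPM in unstimulated wild-type libraries. Every stimulated library was far below every unstimulated one, 5.60-fold lower in Mirc11-/- cells (log2 -2.48 ± 0.141; edgeR adjusted p = 6.11e-08) and 4.03-fold lower in wild-type cells (-2.01 ± 0.132; adjusted p = 2.72e-07). Hmgcs1, the synthase of HMG-CoA, had 122, 165 and 178 CPM in stimulated and 472, 439 and 465 CPM in unstimulated Mirc11-/- libraries. In wild-type libraries Hmgcs1 had 305, 380.3 and 285 CPM stimulated and 692, 761 and 587 CPM unstimulated. Its stimulated level was low in both genotypes without overlap (log2 -1.56 ± 0.150 in Mirc11-/- and -1.07 ± 0.148 in wild-type cells; edgeR adjusted p = 3.83e-06 and 0.000123). Idi1, the isopentenyl diphosphate isomerase, had 22.8, 35.01 and 37.4 CPM in stimulated and 103, 122 and 119.7 CPM in unstimulated Mirc11-/- libraries. Its wild-type levels were 50.3, 59.4 and 48.2 CPM stimulated and 126, 135 and 121 CPM unstimulated. Fdps, the farnesyl diphosphate synthase, had 41.4, 59.1 and 67.3 CPM in stimulated and 205, 180.1 and 211 CPM in unstimulated Mirc11-/- libraries. Fdps had 95.2, 119 and 99.6 CPM in stimulated and 245, 288 and 202 CPM in unstimulated wild-type libraries. Both genes fell without overlap, Idi1 by log2 estimates of -1.85 ± 0.154 in Mirc11-/- and -1.27 ± 0.150 in wild-type cells and Fdps by -1.83 ± 0.172 in Mirc11-/- and -1.23 ± 0.168 in wild-type cells. The kinases Mvk and Pmvk and the decarboxylase Mvd, which act between Hmgcs1 and Idi1, had log2 fold changes of -0.95, -1.07 and -1.11 in Mirc11-/- cells. The same 3 genes had -0.62, -0.84 and -0.75 in wild-type cells, and all 3 were called lower in both. Ggps1, which diverts farnesyl units to the geranylgeranyl lipids that anchor small GTPases, had log2 estimates of -0.14 ± 0.0949 in Mirc11-/- and -0.07 ± 0.0932 in wild-type cells (edgeR adjusted p = 0.243 and 0.606). Of these genes, Acat2, Fdps, Idi1 and Ggps1 share 43.8%, 27.9%, 18.8% and 10.3% of their 31-base stretches with transcripts of other genes, so reads could be split between copies and their levels are uncertain.

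The branch from squalene to cholesterol had 11 genes, all 11 called lower in Mirc11-/- and 9 in wild-type cells. Lss, lanosterol synthase, which closes the sterol rings, had the lowest p of all 41 genes. It had 18.5, 20.9 and 18.6 CPM in stimulated and 93.7, 92.6 and 95.6 CPM in unstimulated Mirc11-/- libraries. Its wild-type levels were 25.99, 28.5 and 31.1 CPM stimulated and 109, 107 and 97.9 CPM unstimulated. The gap between the groups was many times the spread within them, with 4.86-fold lower levels in Mirc11-/- cells (log2 -2.28 ± 0.0892; edgeR adjusted p = 4.4e-09) and 3.67-fold lower in wild-type cells (-1.87 ± 0.0867; adjusted p = 2.63e-08). Hsd17b7, which reduces the sterol 3-keto group, had 7.54, 11.8 and 10.2 CPM in stimulated and 44.4, 44.5 and 45.2 CPM in unstimulated Mirc11-/- libraries. It had 16.5, 21.4 and 17.3 CPM in stimulated and 55.8, 56.6 and 47.8 CPM in unstimulated wild-type libraries. The fall was log2 -2.18 ± 0.144 in Mirc11-/- and -1.54 ± 0.136 in wild-type cells (edgeR adjusted p = 1.4e-07 and 2.85e-06). Cyp51, the lanosterol demethylase, had 55.2, 85.1 and 83.5 CPM in stimulated and 207, 224 and 237 CPM in unstimulated Mirc11-/- libraries. In wild-type libraries Cyp51 had 111, 136 and 116 CPM stimulated and 250.01, 267 and 211 CPM unstimulated. No libraries overlapped, and its log2 fold changes were -1.58 ± 0.151 in Mirc11-/- and -1.01 ± 0.149 in wild-type cells (edgeR adjusted p = 3.83e-06 and 0.000215). Sqle, the squalene epoxidase, had 39.9, 42.5 and 43.9 CPM in stimulated and 94.9, 103 and 109 CPM in unstimulated Mirc11-/- libraries. Msmo1, the sterol methyl oxidase, had 37.6, 48.4 and 53.7 CPM in stimulated and 130.1, 125 and 136 CPM in unstimulated Mirc11-/- libraries. Unstimulated wild-type libraries had 118, 124 and 109 CPM of Sqle and 162, 179 and 138 CPM of Msmo1, and stimulated ones are given with the genotypes below. In both genotypes the 2 genes fell, with log2 fold changes for Sqle of -1.28 in Mirc11-/- and -0.87 in wild-type cells and for Msmo1 of -1.48 in Mirc11-/- and -1.01 in wild-type cells. Fdft1 (squalene synthase), Nsdhl, Sc5d and Dhcr7, the last a reductase that completes cholesterol, were also called lower in both genotypes, with estimates between -1.38 (Fdft1) and -0.98 (Sc5d) in Mirc11-/- cells and between -1.28 (Dhcr7) and -0.67 (Sc5d) in wild-type cells. Tm7sf2, a sterol reductase, had -0.66 ± 0.170 in Mirc11-/- and -0.36 ± 0.164 in wild-type cells, and Ebp, a sterol isomerase, had -0.41 ± 0.113 in Mirc11-/- and -0.0024 ± 0.111 in wild-type cells, each past the threshold in Mirc11-/- cells and not in wild-type cells. The difference between those responses did not pass (adjusted p = 0.594 for Tm7sf2 and 0.445 for Ebp, edgeR interaction term). The levels of Fdft1 and Tm7sf2 are uncertain, since 14.3% and 12.9% of their 31-base stretches are shared with transcripts of other genes.

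**Figure D3:**
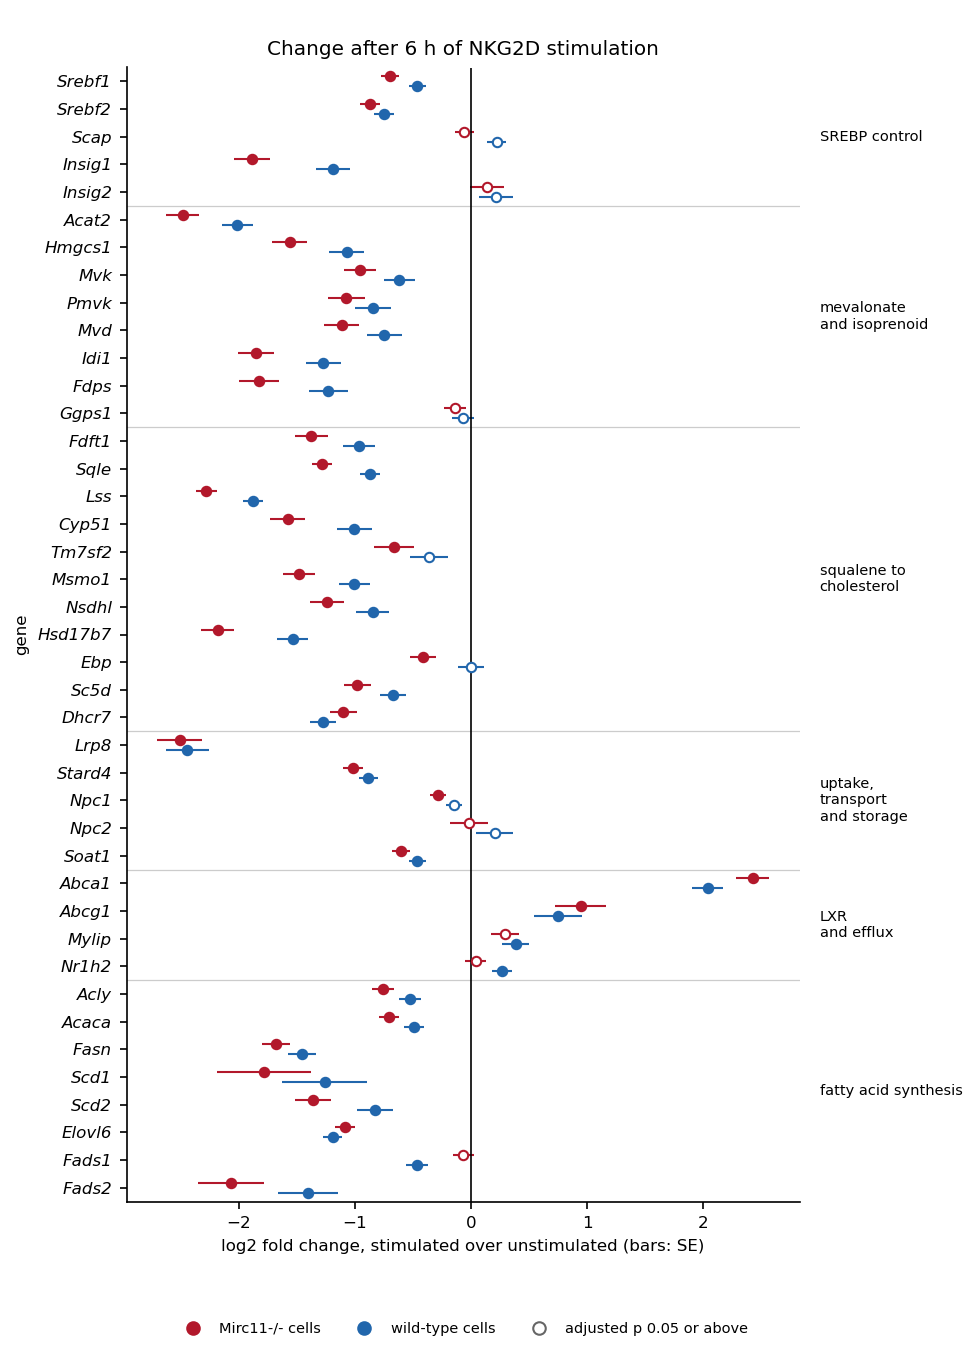
Log2 fold change of each gene after 6 h of NKG2D stimulation, stimulated over unstimulated, with its standard error as a bar; red is Mirc11-/- and blue wild-type, and open circles did not pass an adjusted p of 0.05. The genes of the mevalonate, squalene to cholesterol and fatty acid synthesis roles all lie left of 0 in both genotypes. Lrp8, a gene of uptake, lies lowest of all, at -2.51. The LXR and efflux genes lie right of 0, up to 2.43 for Abca1.

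Of 5 genes of uptake, transport and storage, 4 were called lower in Mirc11-/- and 3 in wild-type cells. Lrp8, a lipoprotein receptor that binds apolipoprotein E, had the lowest fold change of all 41 genes. It had 8.29, 4.95 and 5.67 CPM in stimulated and 32.2, 35.4 and 40.1 CPM in unstimulated Mirc11-/- libraries. Wild-type libraries had 6.85, 9.33 and 7.47 CPM stimulated and 42.1, 35.1 and 51.1 CPM unstimulated. Stimulated levels were 5.69-fold lower in Mirc11-/- cells (log2 -2.51 ± 0.194; edgeR adjusted p = 8.42e-07) and 5.44-fold lower in wild-type cells (-2.44 ± 0.188; adjusted p = 1.23e-06). Stard4, a carrier of sterol between membranes, had 44.3, 54.3 and 53.8 CPM in stimulated and 103, 103 and 102 CPM in unstimulated Mirc11-/- libraries. Its wild-type levels were 65.6, 64.6 and 69.9 CPM stimulated and 124, 118 and 127 CPM unstimulated. The groups were tight and apart, at log2 -1.01 ± 0.0852 in Mirc11-/- and -0.88 ± 0.0843 in wild-type cells (edgeR adjusted p = 1.14e-06 and 5.42e-06). Soat1, which esterifies cholesterol for storage, had 33.2, 37.3 and 37.01 CPM in stimulated and 52.2, 54.4 and 56.6 CPM in unstimulated Mirc11-/- libraries. It had 40.4, 43.7 and 41.2 CPM in stimulated and 58.5, 58.6 and 55.4 CPM in unstimulated wild-type libraries, and its log2 fold changes were -0.60 ± 0.0758 in Mirc11-/- and -0.46 ± 0.0749 in wild-type cells (edgeR adjusted p = 3.67e-05 and 0.000432). Npc1 and Npc2 export cholesterol from lysosomes. Npc1 had 102, 103 and 103 CPM in stimulated and 133, 119 and 123 CPM in unstimulated Mirc11-/- libraries, a log2 fold change of -0.28 ± 0.0712 (edgeR adjusted p = 0.00544), and it had 135, 139 and 135 CPM in stimulated and 154, 154 and 145 CPM in unstimulated wild-type libraries. The wild-type libraries did not overlap either, but the log2 fold change of -0.15 ± 0.0707 did not pass (edgeR adjusted p = 0.131). Npc2 had log2 estimates of -0.02 ± 0.161 in Mirc11-/- and 0.20 ± 0.161 in wild-type cells with overlapping libraries (edgeR adjusted p = 0.937 and 0.363).

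Of the 4 LXR and efflux genes, 2 were called higher in Mirc11-/- and 4 in wild-type cells, and none lower. Abca1, the exporter that loads cholesterol onto apolipoprotein A-I, had 47.5, 54.1 and 63.8 CPM in stimulated and 10.7, 9.08 and 11.01 CPM in unstimulated Mirc11-/- libraries. It had 60.9, 51.6 and 52.1 CPM in stimulated and 14.7, 14.4 and 11.02 CPM in unstimulated wild-type libraries. The stimulated libraries were all high, 5.37-fold in Mirc11-/- cells (log2 2.43 ± 0.140; edgeR adjusted p = 6.45e-08) and 4.10-fold in wild-type cells (2.04 ± 0.135; adjusted p = 2.8e-07). Abcg1, which exports cholesterol to high-density lipoprotein, had 16.3, 15.96 and 19.7 CPM in stimulated and 11.2, 6.87 and 8.84 CPM in unstimulated Mirc11-/- libraries. Wild-type levels of Abcg1 were 30.3, 29.2 and 21.8 CPM stimulated and 16.7, 20.2 and 11.6 CPM unstimulated. Its groups were apart in both genotypes, with log2 fold changes of 0.94 ± 0.218 in Mirc11-/- and 0.75 ± 0.205 in wild-type cells (edgeR adjusted p = 0.00367 and 0.0147). Mylip had 23.8, 23.3 and 22.2 CPM in stimulated and 20.5, 17.2 and 18.7 CPM in unstimulated Mirc11-/- libraries, and 26.6, 24.9 and 21.7 CPM in stimulated and 19.9, 20.7 and 15.6 CPM in unstimulated wild-type ones. Its change was 0.29 ± 0.119 in Mirc11-/- cells, which did not pass (edgeR adjusted p = 0.0573), and 0.39 ± 0.117 in wild-type cells, which did (adjusted p = 0.0222). Nr1h2, which encodes LXR beta, had 0.04 ± 0.0892 in Mirc11-/- and 0.27 ± 0.0883 in wild-type cells (edgeR adjusted p = 0.748 and 0.0327). Among the wild-type calls of this group, that of Abca1 passed in all 12 fits that left out 1 library. The call of Abcg1 ended without replicate 1 of the stimulated or replicate 3 of the unstimulated wild-type libraries, that of Mylip without any of those or without stimulated replicate 2, and that of Nr1h2 in 7 of the 12 fits. With the vomeronasal level in the fit, Abcg1 passed in neither genotype (edgeR adjusted p = 0.209 in Mirc11-/- and 0.0755 in wild-type cells). Mylip did not pass in wild-type cells in that fit (edgeR adjusted p = 0.0969).

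Fatty acid synthesis had 8 genes, 7 of them called lower in Mirc11-/- and 8 in wild-type cells. Fasn, the fatty acid synthase, had 137, 115 and 114 CPM in stimulated and 396, 394 and 383 CPM in unstimulated Mirc11-/- libraries. Its wild-type levels were 124, 171 and 151 CPM stimulated and 408, 363 and 449.8 CPM unstimulated. The stimulated libraries stayed below every unstimulated one, at log2 -1.68 ± 0.124 in Mirc11-/- and -1.45 ± 0.123 in wild-type cells (edgeR adjusted p = 4e-07 and 1.92e-06). Scd1 and Scd2 are stearoyl-CoA desaturases, which make monounsaturated fatty acids. Scd2 had 319, 530.1 and 492 CPM in stimulated and 1169, 1066 and 1214 CPM in unstimulated Mirc11-/- libraries. In wild-type libraries Scd2 had 796, 794 and 880.1 CPM stimulated and 1504, 1536 and 1349.7 CPM unstimulated. The fall of Scd2 was log2 -1.36 ± 0.157 in Mirc11-/- and -0.83 ± 0.155 in wild-type cells (edgeR adjusted p = 1.76e-05 and 0.0012). Scd1 had 5.62, 6.64 and 9.604 CPM in stimulated and 30.5, 17.6 and 27.2 CPM in unstimulated Mirc11-/- libraries. Wild-type libraries had 28.8, 29.1 and 13.97 CPM stimulated and 73.2, 65.2 and 34.1 CPM unstimulated. Its libraries were widely spread, with replicate 3 lowest in both wild-type groups, and the fold changes of log2 -1.78 ± 0.405 in Mirc11-/- and -1.26 ± 0.367 in wild-type cells carry large errors (edgeR adjusted p = 0.00573 and 0.0268). The wild-type call of Scd1 ended without stimulated replicate 3 and without unstimulated replicate 1 or 2. Fads2, a desaturase of polyunsaturated fatty acids, had 3.13, 4.14 and 4.72 CPM in stimulated and 17.9, 14.4 and 17.98 CPM in unstimulated Mirc11-/- libraries. Its wild-type levels were 8.57, 10.04 and 5.44 CPM stimulated and 25.7, 24.6 and 13.5 CPM unstimulated. Fads2 fell by log2 estimates of -2.07 ± 0.281 in Mirc11-/- and -1.40 ± 0.259 in wild-type cells (edgeR adjusted p = 0.000112 and 0.0015). Its neighbour Fads1, whose library values are shown because they were seen to differ, had 24.7, 28.02 and 25.4 CPM in stimulated and 26.6, 28.9 and 26.3 CPM in unstimulated Mirc11-/- libraries, which overlapped. In wild-type libraries Fads1 had 22.3, 18.7 and 22.2 CPM stimulated and 29.7, 29.8 and 27.8 CPM unstimulated, without overlap. The log2 fold change was -0.07 ± 0.0924 in Mirc11-/- cells (edgeR adjusted p = 0.586) and -0.47 ± 0.0918 in wild-type cells (adjusted p = 0.00177). Acly and Acaca, which make cytosolic acetyl-CoA and malonyl-CoA, and the elongase Elovl6 had log2 fold changes of -0.76, -0.71 and -1.09 in Mirc11-/- cells and -0.53, -0.49 and -1.19 in wild-type cells. All 3 were called lower in both. Acaca shares 33.4% of its 31-base stretches with transcripts of other genes, and Scd1 and Scd2 share 8.14% and 6.81%, each most with the other, which makes their levels uncertain too.

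**Figure D4:**
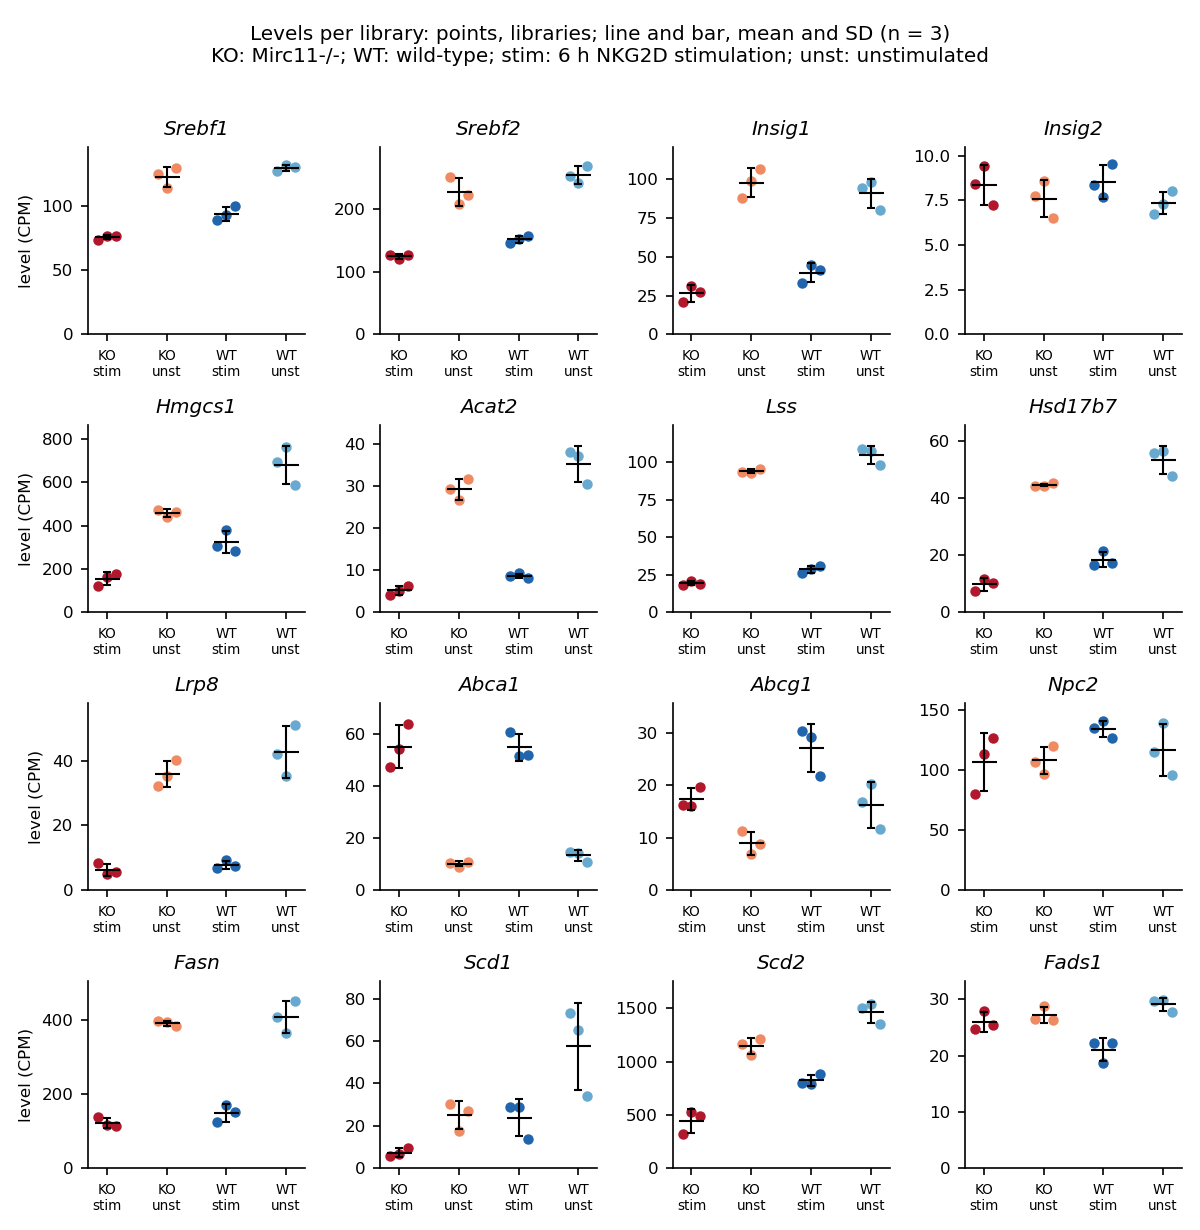
Levels (CPM, linear axes from 0) of 16 of the 41 genes in each library; points are libraries, and the line and bar give the mean and SD of 3 libraries. For Lss and Lrp8 the stimulated libraries sit far below the unstimulated ones in both genotypes, for Abca1 far above them, and for Insig2 and Npc2 the groups overlap.

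Per kilobase of exon, which allows genes to be compared, Scd2 had the highest level of the 41 genes in every group. It stood at 81.8 CPM per kb in stimulated and 210.4 in unstimulated Mirc11-/- cells, against 150.7 and 267.8 CPM per kb in stimulated and unstimulated wild-type cells. Hmgcs1 and Acly held the next places, Acly before Hmgcs1 in stimulated Mirc11-/- cells (36.8 and 33.8 CPM per kb) and Hmgcs1 before Acly in the other groups. Lrp8 was lowest in stimulated cells, at 0.600 CPM per kb in Mirc11-/- and 0.750 in wild-type cells. Abca1 was lowest in unstimulated cells, at 0.989 and 1.29 CPM per kb. The median of the 41 genes was 7.58 and 11.5 CPM per kb in stimulated and unstimulated Mirc11-/- cells, and 11.5 and 13.4 in stimulated and unstimulated wild-type cells.

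The second comparison asks whether loss of Mirc11 changed the response, and the third whether it changed the levels within one state of stimulation. The log2 fold change with stimulation was estimated as lower in Mirc11-/- than in wild-type cells for most of the 41 genes, but no single gene passed. For a gene that fell in both genotypes, a lower value is a larger fall in Mirc11-/- cells. For the difference between the responses, 0 of 41 genes were called by edgeR, by DESeq2 or by limma voom, against 0.0115% of all genes tested called lower by edgeR. At an unadjusted p under 0.05, 14 had a lower and 1 a higher estimate in Mirc11-/- cells, beside 10.6% of all genes in either direction. The estimate was negative for 36 of 41 genes, beside 52.4% of all genes, and its median was -0.28, beside -0.02. The lowest adjusted p among the 41 was 0.382, for Sqle (-0.41 ± 0.120 log2). Insig1 had -0.69 ± 0.209 (edgeR adjusted p = 0.387), Hsd17b7 had -0.65 ± 0.195 and Lss had -0.41 ± 0.121. Fads1 was the 1 gene with a higher estimate at an unadjusted p under 0.05, at 0.40 ± 0.130 (edgeR adjusted p = 0.423). Adding the level of the vomeronasal genes to the fit gave a median of -0.06.

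In unstimulated cells 0 of the 41 genes differed between genotypes by edgeR, against 0.796% of all genes called lower and 0.309% called higher in Mirc11-/- cells. At an unadjusted p under 0.05, 12 were lower and 0 higher, beside 9.21% of all genes in either direction. DESeq2 called 3 lower, against 1.59% of all genes, and limma voom called 0. The median log2 fold change was -0.16, beside 0.01 for all genes, and all 3 Mirc11-/- libraries lay below all wild-type ones for 12 genes, against 8.91% of all genes. Hmgcs1 and Npc1 had the lowest p. For Hmgcs1 the unstimulated levels given above averaged 459 ± 17.3 CPM in Mirc11-/- and 680.1 ± 87.8 CPM in wild-type libraries (SD, n = 3 each), a log2 fold change of -0.57 ± 0.147 (edgeR adjusted p = 0.0999). Npc1 averaged 125 ± 7.04 CPM in Mirc11-/- and 151 ± 5.19 CPM in wild-type libraries, with -0.27 ± 0.0709 (adjusted p = 0.0999). Abcg1 was at -0.84 ± 0.217 (edgeR adjusted p = 0.106). Without the stimulated Mirc11-/- replicate 1, which enters only through the shared spread, 4 genes were called lower (Hmgcs1, Npc1, Scd2 and Stard4). In that fit 291 of all 17683 genes tested were called lower and 113 higher. Without unstimulated wild-type replicate 3, 1 was called lower (Abcg1), against 121 lower and 28 higher of 18308 genes.

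In stimulated cells 21 of the 41 genes were lower in Mirc11-/- than in wild-type cells and 0 were higher (edgeR), against 5.13% and 3.89% of all genes. At an unadjusted p under 0.05, 31 were lower and 1 higher, beside 30.1% of all genes in either direction. The median was -0.39, beside 0.02 for all genes, and all 3 Mirc11-/- libraries lay below all 3 wild-type ones for 30 genes, against 16.8% of all genes. By role the called genes were 3 of 5 for SREBP control, 5 of 8 for the mevalonate branch, 8 of 11 from squalene to cholesterol, 2 of 5 for uptake and storage, 0 of 4 for LXR and efflux and 3 of 8 for fatty acid synthesis. These values share the stimulated libraries with the responses above and are not separate evidence of them. Hmgcs1 had the lowest p, with 122, 165 and 178 CPM in stimulated Mirc11-/- libraries, against 305, 380.3 and 285 CPM in stimulated wild-type ones. This is 2.08-fold lower (log2 -1.06 ± 0.148; edgeR adjusted p = 0.00161) and without overlap. Sqle had 39.9, 42.5 and 43.9 CPM in Mirc11-/- and 61.6, 68.8 and 61.7 CPM in wild-type stimulated libraries, and Msmo1 had 37.6, 48.4 and 53.7 CPM in Mirc11-/- and 72.4, 92.3 and 73.6 CPM in wild-type ones. Neither gene's libraries overlapped, and the log2 fold changes were -0.60 ± 0.0855 for Sqle (edgeR adjusted p = 0.00162) and -0.77 ± 0.135 for Msmo1 (adjusted p = 0.00542). Lss, Hsd17b7 and Npc1, whose libraries are given above, did not overlap between genotypes either and had -0.56 ± 0.0878, -0.90 ± 0.144 and -0.41 ± 0.0711 (edgeR adjusted p = 0.00296, 0.00331 and 0.00501). Scd2 had -0.88 ± 0.155 and Scd1 -1.71 ± 0.403 (edgeR adjusted p = 0.00552 and 0.0341), while Abca1 had 0.01 ± 0.127 and Elovl6 0.12 ± 0.0842. Fads1 was the 1 gene with all Mirc11-/- libraries above all wild-type ones, at 0.30 ± 0.0927 (edgeR adjusted p = 0.0544).

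The count of 21 moved with the fit, as did the calls over all genes. It was 3 when only the stimulated libraries were fitted, against 0.932% of all genes called lower, and 10 without stimulated wild-type replicate 2, against 1.42%. It was 0 with the level of the vomeronasal genes in the fit (median -0.20), against 0.126% of all genes. Without any other single library it was 15 to 22, against 347 to 1242 of 17683 to 18348 genes tested called lower. With the level of those genes in the fit the estimate for Insig1 turned to 0.0127 log2. The 10 genes called in every one of the 12 fits that left out 1 library were Acat2, Hmgcs1, Fdps, Fdft1, Sqle, Lss, Msmo1, Hsd17b7, Npc1 and Scd2. Without stimulated wild-type replicate 2 the calls of Cyp51, Idi1, Mvd, Scap, Srebf1, Stard4, Sc5d, Nsdhl, Insig1, Scd1 and Fads2 ended. Those of Scap, Srebf1, Stard4, Sc5d, Nsdhl and Insig1 also ended without replicate 3 of that group, those of Nsdhl, Insig1, Scd1 and Fads2 without stimulated Mirc11-/- replicate 1, and that of Fads2 in 10 of the 12 fits. The call of Insig1 ended too without stimulated Mirc11-/- replicate 3 or unstimulated wild-type replicate 1. That of Scd1 ended too without stimulated Mirc11-/- replicate 2, unstimulated Mirc11-/- replicate 3 or stimulated wild-type replicate 1.

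**Figure D5:**
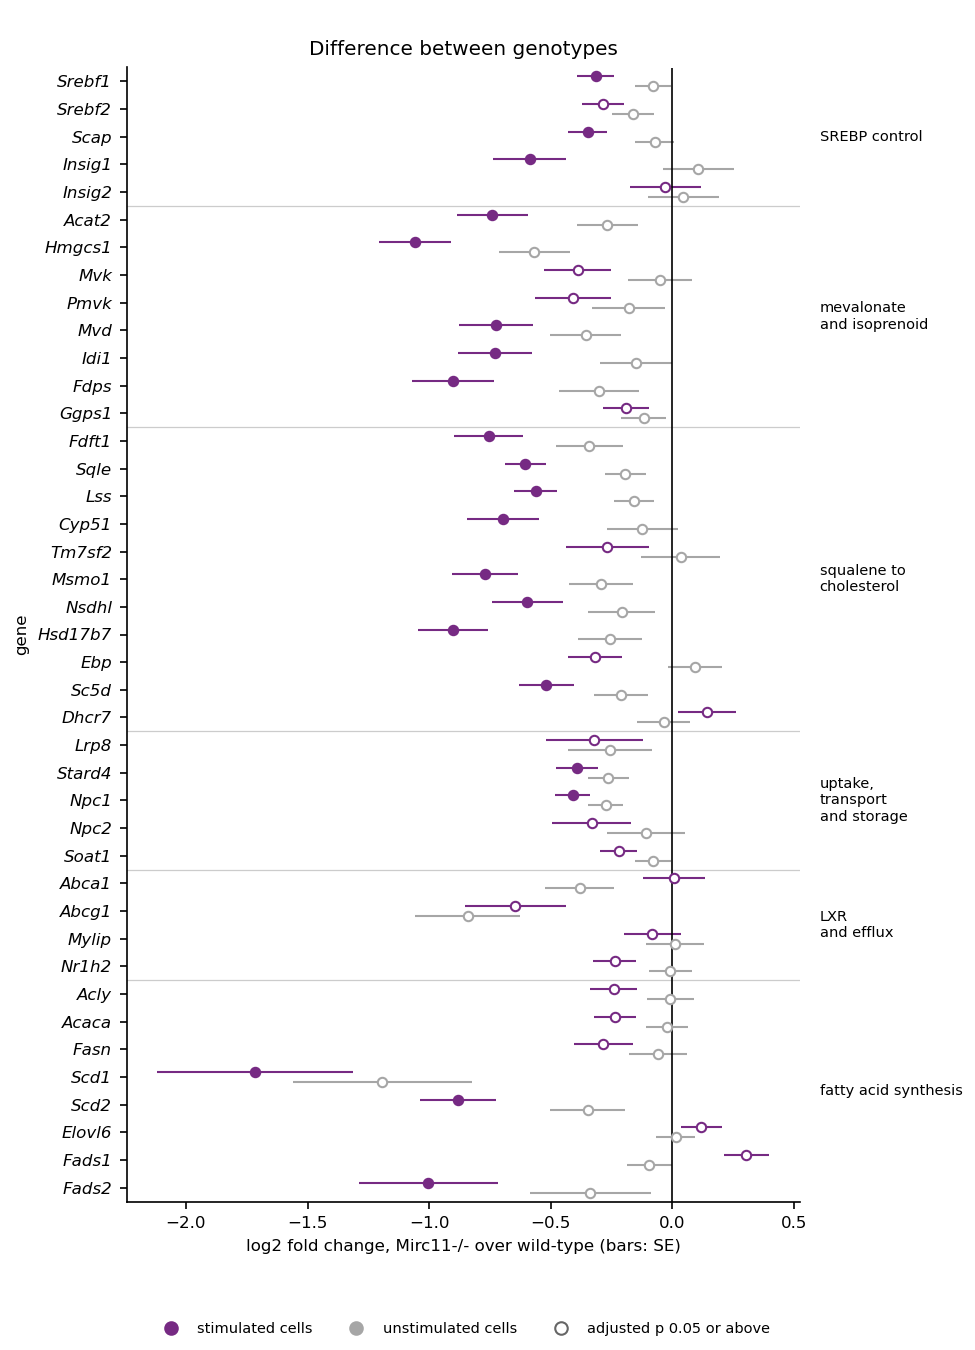
Log2 fold change of each gene between genotypes, Mirc11-/- over wild-type, in stimulated (purple) and unstimulated (grey) cells, with its standard error as a bar; open circles did not pass an adjusted p of 0.05. Filled points, 21 of 41 in stimulated and 0 of 41 in unstimulated cells, all lie left of 0.

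The deleted locus makes 3 microRNAs, of which miR-24 is also made from another locus, and their mature sequences are shown because they are its products. The seed (bases 2 to 8, which pairs with the target) is in capitals, sequences are from RefSeq, and the 3 genes lie within 1 stretch of chromosome 8, chr8:84208563-84208896 on the plus strand of GRCm38.p6.
miR-23a-3p: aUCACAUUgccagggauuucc
miR-27a-3p: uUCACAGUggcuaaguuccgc
miR-24-3p: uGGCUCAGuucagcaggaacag
The longest annotated 3' untranslated region of each gene (GENCODE vM21) was searched for the 7 letters that pair with each seed. The site of miR-23a, AATGTGA, was found in 11 of the 41 genes (26.8%), against 17.9% of 12861 tested genes with such a region. That of miR-27a, ACTGTGA, was found in 8 (19.5%, against 19.7%), and that of miR-24, CTGAGCC, in 8 (19.5%, against 21.4%). At least 1 of the 3 sites was found in 20 genes (48.8%, against 44.5%). The median region was 1600 bases long in the 41 genes and 1405 in all genes searched. Longer regions hold more matches, and the shares were not adjusted for length. Loss of a microRNA is known to raise its targets, but whether these sites take part in the changes was not tested. In stimulated cells 8 of the 20 genes with a site were called lower in Mirc11-/- cells and 0 higher, against 5.13% and 3.89% of all genes tested. Of the 21 genes without a site, 13 were called lower and 0 higher. The median log2 fold change was -0.33 with and -0.56 without a site, a difference that was not tested. Windows are printed for 4 genes that are described above, one for each site with miR-27a given for both an exporter and a desaturase; the site is in capitals.
Acat2, miR-23a site at bases 120 to 126 of its 3' region: gcttgctgtactttAATGTGAgacaccc
Insig1, miR-24 site at bases 967 to 973: gtatgaaaaccaatCTGAGCCttgtatt
Abca1, miR-27a site at bases 2459 to 2465: tggaaaacttactaACTGTGAatatgag
Scd2, miR-27a site at bases 3245 to 3251: tttcgcctaacaatACTGTGActcagta
Between genotypes Abca1, with its miR-27a site, had log2 fold changes of 0.01 ± 0.127 in stimulated and -0.38 ± 0.141 in unstimulated cells. Scd2, with a miR-27a site and also a miR-23a site at bases 2359 to 2365, had -0.88 ± 0.155 and -0.35 ± 0.154. A match of letters is no evidence of a working site.

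Genes of the same pathway that are not among the 41 were counted from lists chosen with earlier results of these data known. Of 26 other SREBP pathway genes tested, 13 fell and 3 rose with stimulation in Mirc11-/- cells and 12 fell and 3 rose in wild-type cells, with a median log2 fold change of -0.35 in both. The shares of all genes called lower and higher, for these lists as for the 41 genes, were 22.1% and 23.5% in Mirc11-/- cells and 15.7% and 16.1% in wild-type cells. Aacs, the acetoacetyl-CoA synthetase, had log2 fold changes of -1.38 in Mirc11-/- and -1.10 in wild-type cells (edgeR, called lower in both). Pcyt2, of phosphatidylethanolamine synthesis, had -0.94 in Mirc11-/- and -0.74 in wild-type cells, and the retinol dehydrogenase Rdh11 had -1.34 in Mirc11-/- and -1.12 in wild-type cells, all called lower. In stimulated cells 7 of the 26 were lower in Mirc11-/- than in wild-type cells and 0 were higher, against 5.13% and 3.89% of all genes. Of 9 other LXR and efflux genes, 3 rose and 3 fell in Mirc11-/- cells and 2 rose and 3 fell in wild-type cells. Abca7, a lipid exporter related to Abca1, rose on the log2 scale by 0.49 in Mirc11-/- and 0.43 in wild-type cells, and Lpcat3, an LXR target that remodels phospholipids, had -0.58 in Mirc11-/- and -0.36 in wild-type cells. Of 15 genes of fatty acid oxidation, 3 rose and 1 fell in Mirc11-/- cells and 6 rose and 1 fell in wild-type cells, so the share that rose in Mirc11-/- cells was close to that of all genes. Cpt1a, which admits fatty acids to mitochondria, rose on the log2 scale by 1.02 in Mirc11-/- and 0.85 in wild-type cells (edgeR, called in both), and Hadhb, a subunit of the trifunctional oxidation enzyme, had -0.62 in Mirc11-/- and -0.35 in wild-type cells.

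Markers of other cells also moved. Beside their counts stand the same shares of all genes called lower and higher, 22.1% and 23.5% in Mirc11-/- cells and 15.7% and 16.1% in wild-type cells. Of the B cell markers 4 of 9 were tested, of which 4 rose in Mirc11-/- and 2 in wild-type cells. Their summed level, nearly all of it Ighm, was 104 to 115 CPM in stimulated and 64.6 to 73.6 CPM in unstimulated Mirc11-/- libraries, against 106 to 129 and 57.5 to 72.1 CPM in stimulated and unstimulated wild-type libraries. Of 10 T cell markers 1 rose and 1 fell in each genotype, with sums of 300.4 to 329.9 and 271 to 348 CPM in stimulated and unstimulated Mirc11-/- libraries and 257 to 301 and 232 to 292 CPM in stimulated and unstimulated wild-type libraries. Macrophage and monocyte markers summed to 12.1 to 15.8 CPM in stimulated and 5.30 to 9.55 CPM in unstimulated Mirc11-/- libraries, and 16.1 to 19.5 and 8.94 to 11.4 CPM in stimulated and unstimulated wild-type ones, and of the 3 tested 2 rose in Mirc11-/- and 1 in wild-type cells. Of 4 dendritic cell markers tested 2 rose in Mirc11-/- and 1 in wild-type cells, and of 2 neutrophil and mast cell markers tested 1 rose in each. The neutrophil and mast cell markers summed to 69.5 to 109 and 15.3 to 25.7 CPM in stimulated and unstimulated Mirc11-/- libraries, and to 68.9 to 104 and 25.1 to 28.5 CPM in stimulated and unstimulated wild-type ones. The dendritic cell markers summed to 160 to 194 and 190 to 207 CPM in stimulated and unstimulated Mirc11-/- libraries, and to 87.3 to 131 and 76.5 to 129.7 CPM in stimulated and unstimulated wild-type ones. Whether such cells took part in the changes above was not tested.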

How the data were processed

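The deposited values are expected counts per gene from RSEM, which the authors rounded to whole numbers before deposit, as the values themselves show. Per the submitters' processing notes the software named is RSEM 1.3.0, Bowtie2 2.2.8, Trim Galore 0.4.1 and bcl2fastq, and the build is GRCm38. The sources used here give no strand setting, and reads of overlapping antisense genes (18.3% of the exon bases of Fdft1, 13.2% of Scap and 12.1% of Hmgcs1) cannot be told apart. RSEM divides reads that fit several genes, so genes with near-identical copies are uncertain.

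From these counts, libraries were scaled with TMM factors, genes were kept by edgeR's filterByExpr (minimum count 10), and edgeR 4.0.16 (R 4.3.3) fitted robust quasi-likelihood models with 1 mean per group over all 12 libraries, which leaves 8 residual degrees of freedom. Tests were two-sided, with Benjamini-Hochberg adjustment over 17457 genes and a threshold of 0.05. The scripts were tested on simulated data. Alternatives were DESeq2 1.42.0 and its size factors, limma voom 3.58.1, no composition factors, no filter, a minimum count of 50, a fit that is not robust, fits of only the groups compared, a replicate block, the vomeronasal receptor level as a covariate, and leaving out each library.

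The 41 genes, the other lists and the tests were chosen with earlier results of these data known. Library values were given for up to 3 genes a role with the largest change, up to 6 with the lowest p between genotypes, and 9 genes chosen by name. From the other pathway lists up to 4 called genes were eligible. Gene models came from GENCODE vM21, and promoters and microRNAs from RefSeq.

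Replicate numbers were checked for pairing by correlating deviations from group means over 8623 genes. Same-numbered stimulated and unstimulated wild-type libraries had r of 0.24, 0.44 and 0.26, and Mirc11-/- libraries 0.09, -0.13 and 0.34. Libraries of different numbers had r of -0.27 to -0.01 in wild-type and -0.32 to 0.20 in Mirc11-/- cells. Deviations from a group mean are tied to one another, so these r values are not independent. Whether the numbers mark shared animals or cultures is not known for either genotype.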

Additional observations from a re-analysis of the deposited data

How the results depend on the processing

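Over 4797 single-gene values under the alternatives, 137 lost the call with their sign kept and 58 gained one. A further 1 lost the call with a change of sign, and the others stayed on their side of the threshold. The sign changed for 89 of the values, 29 of them with the vomeronasal level as a covariate. Of the 89, 88 were called neither as reported nor under the alternative, and 1 was a called value: Insig1 between genotypes in stimulated cells, at 0.0127 log2 with that covariate. With that covariate 11 genes were called for stimulation in Mirc11-/- cells (median -0.48), against 3.33% of all genes called lower and 3.8% higher. In wild-type cells 26 were called (median -0.44), against 13.3% and 14.6%. Between genotypes 2 were called in unstimulated cells, against 1.27% of all genes lower and 0.544% higher. In stimulated cells 0 were called between genotypes (median -0.20), against 0.126% lower and 0.0687% higher. The cause was not tested, and the covariate itself moves with stimulation. Between genotypes in unstimulated cells all calls were lower in Mirc11-/- cells. They were 2 without composition factors, against 163 of 17457 genes tested called lower, and 1 without a filter, against 205 of 42168. DESeq2 called 3 and a fit of only the groups compared 2, against 1.59% and 1.5% of all genes. Without replicate 1 of both stimulated groups together (an alternative chosen after seeing the data) 4 were called, against 269 of 17485. The calls were 0 to 4 when each library was left out, against 52 to 291 of 17683 to 18348 genes tested. Between genotypes in stimulated cells the calls were 3 with only the groups compared, a fit with fewer libraries, against 0.932% of genes called lower. They were 10 to 22 when each library was left out, against 260 to 1242 of the genes tested called lower. Leaving out each library gave 34 to 35 calls for stimulation in Mirc11-/- cells, 31 to 35 in wild-type cells and 0 for the difference of responses. In the same fits 3272 to 3954 of the genes tested were called lower and 3488 to 4452 higher with stimulation in Mirc11-/- cells. In wild-type cells the ranges were 1921 to 3498 lower and 2010 to 3354 higher. For the difference of responses 0 to 17 were lower and 0 to 2 higher.

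With the replicate block the calls were 35 and 34 for stimulation in Mirc11-/- and wild-type cells, 0 for the difference of responses, and 0 and 21 between genotypes in unstimulated and stimulated cells. Of 17457 genes, that fit called 3961 lower and 4109 higher with stimulation in Mirc11-/- cells and 2815 and 2881 in wild-type cells. It called 3 and 0 for the difference, and 131 and 45 between genotypes in unstimulated and 1176 and 966 in stimulated cells. A block within each genotype gave 35, 34 and 0 for stimulation in Mirc11-/- and wild-type cells and their difference. It called 4165 of all genes lower and 4155 higher in Mirc11-/- cells and 3010 and 2948 in wild-type cells. For the difference it called 10 and 3. For the difference of responses, a fit of only the groups compared is the fit of all 12 libraries. Counts of genes whose libraries do not overlap were not recomputed. At 15139281 to 25342991 counts a library, each microRNA gene of the cluster had at most 4 counts in any library, so the check of the deletion rests on few counts.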
